A study of Mus musculus with 4 samples.

Results

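Prkca, Prkcb, Sebox, Car8, Rpa1, Vstm2b and Pcp2 are genes known from rod bipolar cells of the retina, and Car10 is a relative of Car8. They were taken by name, with every probe set that the array annotation gives to exactly 1 of these genes. This gave 21 of 45037 probe sets and 8 of 18193 genes. RNA came from retinal neurons of mice of mixed C57Bl6 and CD1 background at postnatal day 6, offspring of males that carried the MP transgene and females that did not. All cells were positive for the fluorescent protein CFP. MP amacrine cells were sorted as positive for the VC1.1 antibody and MP bipolar cells as negative for it, after removal of VC1.1-positive cells on a magnetic column. Both groups had 2 biological replicates, taken from separate litters. A replicate held about 1000 cells, its RNA was amplified in several rounds, and it was read on 1 array. The labels name neither the promoter that drives the MP transgene nor the bipolar types it marks, so the MP bipolar cells are not labelled as rod bipolar cells.

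Rod bipolar cells receive light signals from rod photoreceptors and pass them to AII amacrine cells, which feed them into the cone pathway. They are among the last retinal neurons to be born, and antibodies to protein kinase C alpha, the product of Prkca, are the standard way to stain them. Car8 and Car10 encode carbonic anhydrase-related proteins, which keep the fold of carbonic anhydrase but do not hydrate carbon dioxide. Car8 binds the type 1 receptor for inositol trisphosphate (IP3), and Car10 is secreted and binds neurexins, the presynaptic adhesion proteins.

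The values are intensities on a linear scale, and the median probe set lay between 44.5 and 47.2 on the 4 arrays. The sorted groups were checked against their markers. Of 9 tested amacrine markers, 7 passed the test with higher values in MP amacrine cells, Tfap2c (log2 fold change 4.99), Pax6 (4.56), Tfap2b (3.64) and the vesicular GABA and glycine transporter Slc32a1 (3.33) among them. A dimmer Slc32a1 probe set, 1447573_at, was tested and did not pass (0.27, adjusted p = 0.55, limma). Of 9 tested bipolar markers, 8 were lower in MP amacrine cells, led by Cabp5 (-4.91), Scgn (-3.30), Vsx1 (-3.10) and Lhx3 (-2.88). Over all tested genes 10.7% passed, 5.36% toward MP amacrine cells and 5.35% toward MP bipolar cells. Tfap2c, Tfap2b and Calb2 lay below the array median on both bipolar arrays, and Lhx3 and Grik1 on both amacrine arrays. Only probe sets above the median on at least 2 arrays were tested, so the filter set the direction of these markers. The amacrine count was 4 without MP amacrine replicate 2. The bipolar count was 4 with no filter on dim probe sets, and 5 without MP bipolar replicate 1 or 2. Fewer of the markers were bright enough to test when a replicate was omitted. Markers of other cells were also present. The summed intensity of 8 rod photoreceptor markers, with Prph2 below 16 on all arrays, was 7131 and 4540 in MP amacrine cells and 4222 and 5330 in MP bipolar cells, and of 6 tested members 0 passed after adjustment (limma, 2 at an unadjusted p under 0.05). Arrestin, Sag, was the brightest, at 3336 and 2462 in MP amacrine cells and 2422 and 3252 in MP bipolar cells. For 8 Müller glia markers the sums were 4375 and 4088 in MP amacrine cells and 1930 and 2408 in MP bipolar cells, and Vim (3.19) and Dkk3 (1.60) were the 2 that passed of 6 tested, both higher in MP amacrine cells. Vim probe set 1456292_a_at passed in the same direction (2.97), and 1450641_at did not pass (1.43, adjusted p = 0.10, limma). Sums of 7 ganglion cell markers were 3831 and 1877 in MP amacrine cells and 2750 and 3628 in MP bipolar cells, and of 5 tested 1 passed, Thy1 (-1.41). The other 4 had the opposite sign, and the list's median was 1.08. Nefm read 1631 and 136 in MP amacrine cells and 47.7 and 35.0 in MP bipolar cells (3.13, adjusted p = 0.11, limma), and Nefl read 1102 and 87.5 in MP amacrine cells and 68.6 and 45.7 in MP bipolar cells (2.23, adjusted p = 0.25, limma). Both were far higher on MP amacrine replicate 1 than on the other arrays. Pou4f1 (1.08) and Slc17a6 (0.30) did not pass either. Over the alternatives between 0 and 4 members passed, with 3 toward MP amacrine cells and 1 toward MP bipolar cells without MP amacrine replicate 2 and with the replicate number as a block, 2 without MP amacrine replicate 1, and 0 without MP bipolar replicate 1 or 2. Without MP bipolar replicate 1 or 2 the calls of Dkk3 (adjusted p = 0.054 and 0.061) and Thy1 (0.068 and 0.21) were lost. The part of these other cells in the differences below was not tested. In sorted populations, fewer cells of a type and less RNA per cell cannot be told apart.

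Of the 21 member probe sets, 15 lay above the array median on at least 2 arrays and were tested, at least 1 for each gene. The other 6 were too dim and are given by their values. The 4 that passed the test were all higher in MP bipolar cells: 1 of Car10, 2 of Car8 and 1 of Rpa1. The 2 of Car8 had passed the filter through the bipolar arrays alone, so the filter set their direction. Over all tested probe sets 9.46% passed, 4.52% with higher values in MP amacrine cells and 4.94% with higher values in MP bipolar cells. At an unadjusted p under 0.05, 5 member probe sets passed. The best-known rod bipolar marker, Prkca, was not among them, and neither were Prkcb, Sebox, Vstm2b and Pcp2. The median log2 fold change of the tested member probe sets was -0.46, against -0.03 over all tested probe sets. The groups did not overlap for 12 of the 15, while 50.7% of all tested probe sets had groups that did not overlap. Of the 12, 10 were lower in MP amacrine cells, and 27.4% of all tested probe sets were so. Of the 10, 3 (2 of Car8 and 1 of Pcp2) had passed the filter through the bipolar arrays alone and had to be lower in MP amacrine cells, so the counts and the median are a description of the probe sets that were tested.

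**Figure D1:**
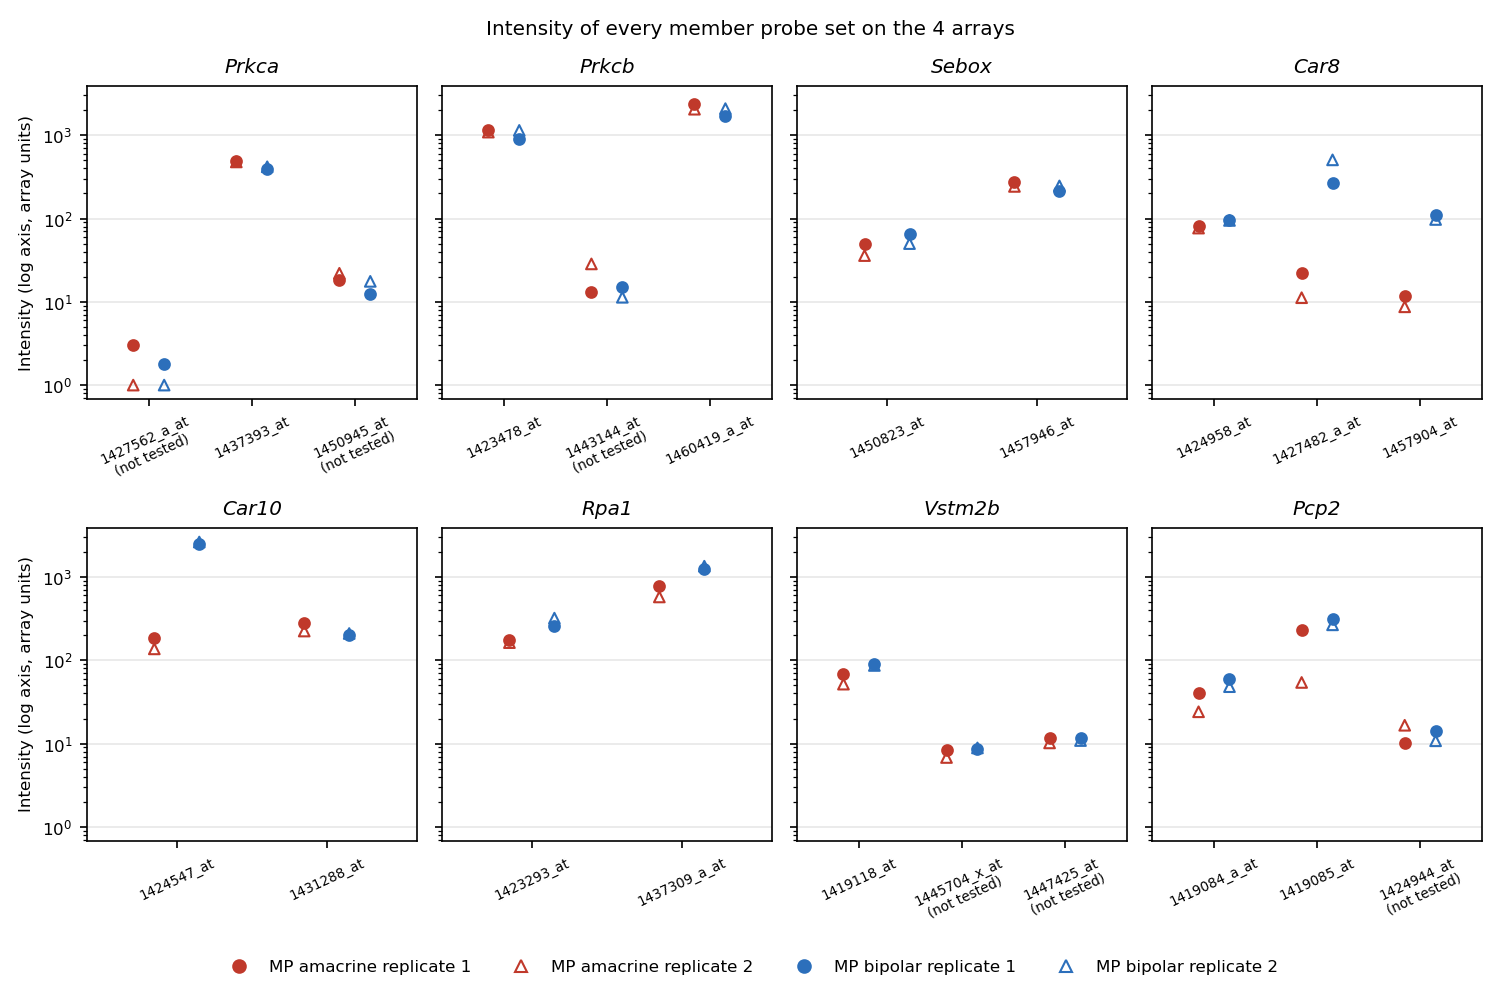
Intensity (array units, log axis) of each of the 21 probe sets of the 8 genes on the 4 arrays, with MP amacrine cells in red left of MP bipolar cells in blue, circles for replicate 1 and triangles for replicate 2. Car10 1424547_at, Car8 1427482_a_at and Car8 1457904_at show red points far below blue ones, while the points of the tested Prkca and Prkcb probe sets lie close together.

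Car10 and Car8 differed most of the 8 genes. The Car10 probe set 1424547_at read 185 and 137 in MP amacrine cells, against 2504 and 2631 in MP bipolar cells. Both amacrine arrays lay far below both bipolar arrays, and the amacrine mean was 6.28% of the bipolar mean. The log2 fold change was -3.88 (SE 0.23, adjusted p = 2.23e-04, limma). Fold changes here are on the log2(intensity + 16) scale, MP amacrine minus MP bipolar, which understates the difference of dim probe sets. The other Car10 probe set, 1431288_at, read 277 and 225 in MP amacrine cells and 199 and 210 in MP bipolar cells. It was slightly higher on both amacrine arrays and did not pass (0.27, 95% interval -0.28 to 0.82, adjusted p = 0.60, limma). The 2 probe sets of Car10 thus gave different answers, and the annotation does not say which transcripts each one reads. Among 724 genes with several tested probe sets and at least 1 that passed, 531 also had a tested one that did not pass. That count takes in probe sets of the same sign near the threshold. Those of opposite sign, as in Car10, were not counted apart.

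RefSeq (build GRCm38.p6) lists 2 starts for Car10. Their promoters are shown because Car10 is one of the members that differ most, each from 250 bases before the start through the 50 bases from it on, 5′ to 3′.
Car10 start 1, chr11:93098116-93098415, plus strand: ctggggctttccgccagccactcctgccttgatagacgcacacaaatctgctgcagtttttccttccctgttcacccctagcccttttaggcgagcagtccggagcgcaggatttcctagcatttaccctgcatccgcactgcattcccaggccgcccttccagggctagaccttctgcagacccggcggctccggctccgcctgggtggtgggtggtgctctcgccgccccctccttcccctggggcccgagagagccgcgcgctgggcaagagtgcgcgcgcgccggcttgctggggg
Car10 start 2, chr11:93099040-93099339, plus strand: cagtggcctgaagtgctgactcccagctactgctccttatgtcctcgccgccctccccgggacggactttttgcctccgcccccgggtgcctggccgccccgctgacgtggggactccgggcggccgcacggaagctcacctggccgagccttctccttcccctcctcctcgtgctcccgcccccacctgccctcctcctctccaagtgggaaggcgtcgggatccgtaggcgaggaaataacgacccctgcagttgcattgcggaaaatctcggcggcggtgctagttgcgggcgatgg
Both are rich in G and C, 66.3% and 67.7% of their bases. Neither holds TAATCC, a core site of Otx and Crx homeodomain proteins, TAATTA, a site of many homeodomains, or CAGATG, an E box bound by bHLH factors, on either strand. Of all 32851 promoters in the table, 7.06% hold TAATCC, 5.29% TAATTA and 17.2% CAGATG. A match would describe the letters and not a bound site, and its absence says nothing of the factors.

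Car8 was lower in MP amacrine cells by 2 of its 3 probe sets. Probe set 1427482_a_at read 22.3 and 11.2 in MP amacrine cells, against 269 and 506 in MP bipolar cells. The groups were far apart, although the bipolar arrays themselves differed almost as much as the amacrine arrays did in ratio. Its log2 fold change was -3.58 (SE 0.34, adjusted p = 0.00134, limma). Probe set 1457904_at read 11.8 and 8.71 in MP amacrine cells and 111 and 97.4 in MP bipolar cells (-2.19, SE 0.21, adjusted p = 0.00133, limma). On these 2 probe sets the amacrine means were 4.33% and 9.86% of the bipolar means. Both had passed the filter through the bipolar arrays alone, and their amacrine values lie near the offset of 16, so the size of the fold change depends on that offset. With an offset of 1 the log2 fold changes were -4.45 and -3.23, and with an offset of 64 they were -2.43 and -1.18. The remaining probe set, 1424958_at, read 81.2 and 76.8 in MP amacrine cells and 96.0 and 94.9 in MP bipolar cells. Its groups did not overlap, but the difference did not pass (-0.23, 95% interval -0.71 to 0.25, adjusted p = 0.60, limma).

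Other carbonic anhydrase genes did not pass the test. Of 14 such genes with a probe set, 5 were bright enough to test, and 0 of them passed after adjustment (limma, 1 at an unadjusted p under 0.05). Their median log2 fold change was 0.14, against -0.03 over all tested genes. By the brightest probe set of each gene, 10.7% of all tested genes passed, 5.36% toward MP amacrine cells and 5.35% toward MP bipolar cells. Car2, the abundant cytosolic enzyme, was the nearest to the threshold, with 157 and 120 in MP amacrine cells and 244 and 289 in MP bipolar cells (-0.88, adjusted p = 0.080, limma). It passed when each gene was tested by its brightest probe set alone (adjusted p = 0.046). Car11, the remaining carbonic anhydrase-related gene, was too dim to test, at 39.5 and 7.71 in MP amacrine cells and 21.1 and 31.7 in MP bipolar cells. Among the binding partners, Nrxn3 was lower in MP amacrine cells, with 1835 and 1988 against 3218 and 3364 in MP bipolar cells (-0.78, SE 0.12, adjusted p = 0.011, limma), and 2 other Nrxn3 probe sets passed in the same direction (-1.85 and -1.49), while 2 more had the same sign and did not pass (-1.11 and -0.60, adjusted p = 0.057 and 0.22). The call of the first probe set was lost without MP bipolar replicate 1 (adjusted p = 0.10) or replicate 2 (0.15). Nrxn2 did not pass (0.08). Of the IP3 receptors, Itpr2 (0.14) and Itpr3 (0.07) were tested and did not pass, and Itpr1 was not analysed here.

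Rpa1 encodes the largest subunit of replication protein A, which coats single-stranded DNA, and its transcript is known as enriched in rod bipolar cells. Probe set 1437309_a_at read 770 and 576 in MP amacrine cells, against 1244 and 1349 in MP bipolar cells. The groups did not overlap, and the amacrine mean was 51.9% of the bipolar mean (-0.94, SE 0.21, adjusted p = 0.040, limma). The other probe set, 1423293_at, gave 175 and 163 in MP amacrine cells and 258 and 321 in MP bipolar cells. It had the same sign but did not pass after adjustment (-0.72, SE 0.23, adjusted p = 0.13, limma). The call for 1437309_a_at rested on the settings: it was lost in 7 of 16 alternatives, with an adjusted p of 0.051 after quantile normalization, 0.071 without MP amacrine replicate 2 and 0.19 and 0.29 without either bipolar replicate. The sign was the same in all 16, but the filter, test unit, moderation and block settings leave the fold change unchanged. The sign could not change there. Over all 16 the fold change lay between -1.15 and -0.74. Other genes of the complex and of DNA replication were set beside Rpa1. Of 10 tested, 1 passed, toward MP amacrine cells, near the 10.7% of all tested genes, and the median was 0.30. That gene was Mcm7, a subunit of the replicative helicase, with 1218 and 894 in MP amacrine cells and 391 and 359 in MP bipolar cells (1.44, SE 0.24, adjusted p = 0.012, limma). It missed the threshold without MP bipolar replicate 1 (adjusted p = 0.068) or replicate 2 (0.097). Mcm7 probe set 1439269_x_at passed in the same direction (1.13, adjusted p = 0.033, limma), and 1416031_s_at was tested and did not pass (0.43, adjusted p = 0.34). The RPA subunits Rpa2 (-0.41) and Rpa3 (0.04) did not pass, nor did Mcm2 (-0.27). Among the tested genes of this list, only Rpa2 and Mcm2 had a negative sign.

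Prkca and Prkcb encode the alpha and beta isoforms of conventional protein kinase C, which calcium and diacylglycerol activate. The 1 tested probe set of Prkca, 1437393_at, read 490 and 478 in MP amacrine cells and 394 and 418 in MP bipolar cells. Both amacrine arrays were slightly above both bipolar arrays, opposite to the sense of a bipolar marker, and the difference did not pass (0.25, 95% interval -0.27 to 0.76, adjusted p = 0.60, limma). The other Prkca probe sets were too dim to test. Probe set 1450945_at read 18.4 and 22.0 in MP amacrine cells and 12.5 and 17.6 in MP bipolar cells, and 1427562_a_at stayed at or below 3 on all 4 arrays. Prkcb, which is known from cone bipolar and amacrine cells as well, was tested by 2 probe sets. Probe set 1460419_a_at read 2380 and 2053 in MP amacrine cells and 1689 and 2086 in MP bipolar cells, and 1423478_at read 1154 and 1090 in MP amacrine cells and 902 and 1143 in MP bipolar cells. The groups overlapped on both, and neither passed (0.23 and 0.14, with upper 95% limits of 0.63 and 0.61). The dim 1443144_at read 13.1 and 28.5 in MP amacrine cells and 14.9 and 11.3 in MP bipolar cells.

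Other protein kinase C and D genes were set beside them. Of 7 tested, 2 passed, both toward MP amacrine cells. Over all tested genes 10.7% passed, 5.36% toward MP amacrine cells. The 2 kinase genes were Prkce, an isoform that does not need calcium, with 472 and 389 in MP amacrine cells and 186 and 215 in MP bipolar cells (1.04, SE 0.24, adjusted p = 0.041, limma), and Prkd1, a kinase that protein kinase C activates (0.97, SE 0.21, adjusted p = 0.036). Without MP bipolar replicate 1 or 2 neither passed (adjusted p between 0.20 and 0.27). Prkce also missed the threshold without MP amacrine replicate 1 (0.079) and with the replicate number as a block (0.055), and Prkd1 without MP amacrine replicate 2 (0.105). A second tested probe set of Prkd1 gave 0.28 and did not pass. Of 6 tested activators and substrates, 1 passed, beside the 10.7% of all tested genes. Plcb4, a phospholipase C that makes diacylglycerol and IP3, was lower in MP amacrine cells at 348 and 292, against 1179 and 1427 in MP bipolar cells (-1.97, SE 0.22, adjusted p = 0.0026, limma). A second Plcb4 probe set passed in the same direction (-1.75). It had passed the filter through the bipolar arrays alone, which set its direction.

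**Figure D2:**
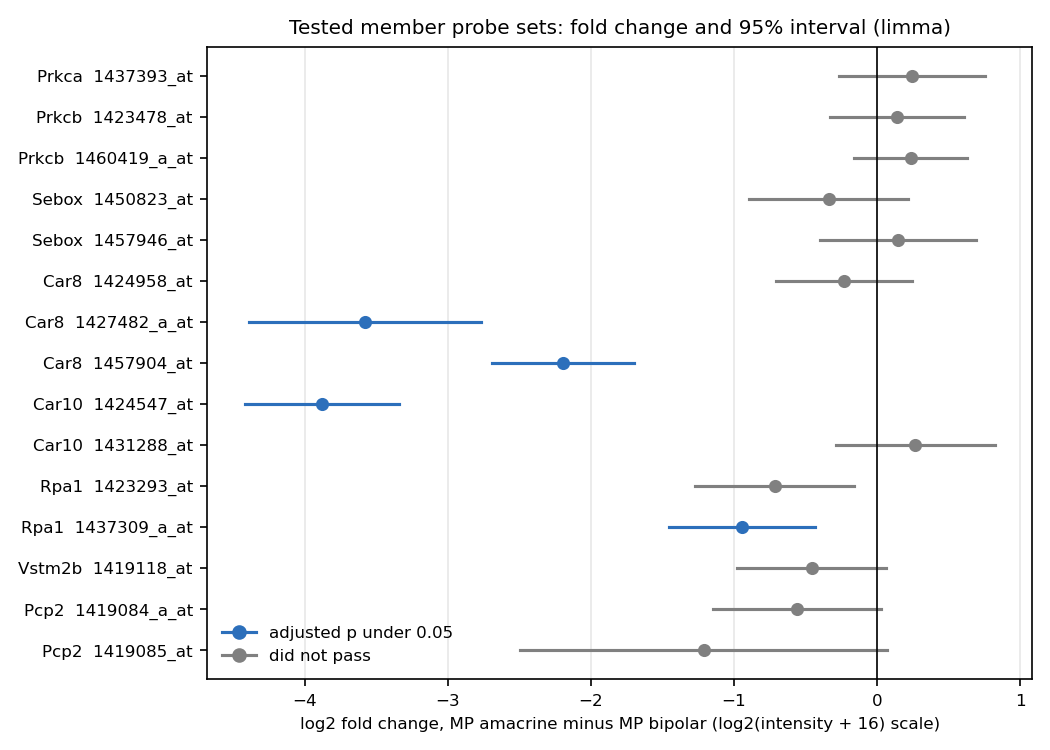
Log2 fold change (MP amacrine minus MP bipolar, on the log2(intensity + 16) scale) of the 15 tested probe sets with 95% intervals, blue where the adjusted p was under 0.05 and grey where it was not. Of the 4 blue probe sets, those of Car10 and Car8 lie between -3.88 and -2.19 and that of Rpa1 at -0.94. The grey intervals include 0, apart from that of Rpa1 1423293_at (-1.27 to -0.16).

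Sebox encodes a homeodomain transcription factor named for its expression in skin, embryo, brain and oocytes. Its probe set 1450823_at read 49.4 and 35.9 in MP amacrine cells and 66.0 and 49.99 in MP bipolar cells, and 1457946_at read 272 and 243 in MP amacrine cells and 215 and 246 in MP bipolar cells. The first had groups that touched without overlapping and the second had groups that overlapped. Their signs were opposite, and neither passed (-0.34 and 0.15, adjusted p = 0.50 and 0.80, limma).

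Vstm2b encodes a membrane protein with an immunoglobulin-like domain. Its only tested probe set, 1419118_at, read 69.0 and 51.7 in MP amacrine cells and 89.7 and 86.7 in MP bipolar cells. Both amacrine arrays were lower, but the difference did not pass (-0.46, 95% interval -0.98 to 0.06, adjusted p = 0.30, limma). Its dim probe sets 1447425_at and 1445704_x_at read between 6.81 and 11.8 on all arrays. The relatives Vstm2a and Vstm2l were both tested and were higher in MP amacrine cells. Both had passed the filter through the amacrine arrays alone, which set their direction. Vstm2a read 511 and 329 in MP amacrine cells, against 9.54 and 7.64 in MP bipolar cells (4.12, SE 0.26, adjusted p = 2.98e-04, limma), and the fold change was 5.43 with an offset of 1 and 2.71 with an offset of 64. Vstm2l read 91.4 and 91.6 in MP amacrine cells and 16.8 and 32.5 in MP bipolar cells (1.43, SE 0.25, adjusted p = 0.015), and it missed the threshold without MP bipolar replicate 1 (adjusted p = 0.098). Its fold change was 1.92 with an offset of 1 and 0.82 with an offset of 64.

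Pcp2 encodes a small protein with GoLoco motifs, which bind the inhibitory G protein subunits of the Gi and Go class, and is known from rod bipolar and Purkinje cells. Probe set 1419085_at read 228 and 54.2 in MP amacrine cells, against 309 and 267 in MP bipolar cells. Both amacrine values were below both bipolar values, but the amacrine arrays were farther apart than replicate 1 was from the bipolar arrays. The difference did not pass (-1.21, SE 0.54, adjusted p = 0.27, limma). It passed without MP amacrine replicate 1 (-2.11, adjusted p = 0.0054) and was -0.31 without MP amacrine replicate 2 (adjusted p = 0.60). In such a fit the lone amacrine array is assumed to vary like the bipolar arrays. Probe set 1419084_a_at read 40.1 and 24.1 in MP amacrine cells and 60.0 and 48.2 in MP bipolar cells. It had passed the filter through the bipolar arrays alone, and its difference did not pass (-0.56, adjusted p = 0.26). The dim 1424944_at read between 10.2 and 16.6 on all arrays.

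Some bipolar markers also differed between the amacrine libraries. Of the 9 tested, 6 were higher on MP amacrine replicate 1 than on replicate 2, as were 49.1% of all tested probe sets. Cabp5 read 259 and 29.4 on the amacrine arrays, against 3251 and 3428 in MP bipolar cells. Vsx1 read 154 and 67.7 in MP amacrine cells and 1133 and 898 in MP bipolar cells. Otx2 (1523 and 1646), Neto1 (88.6 and 167) and Grik1 were the 3 that were higher on MP amacrine replicate 2. The whole list summed to 2388 and 2165 in MP amacrine cells and 10875 and 11194 in MP bipolar cells, and none of its members was below 16 on all arrays. MP amacrine replicate 2 also had the largest difference between the 3-prime and 5-prime Gapdh control probe sets, 3.21 on the log2 scale, against 1.78 on amacrine replicate 1 and 1.95 and 2.0 on the bipolar arrays. The part of either in the Pcp2 values was not tested.

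**Figure D3:**
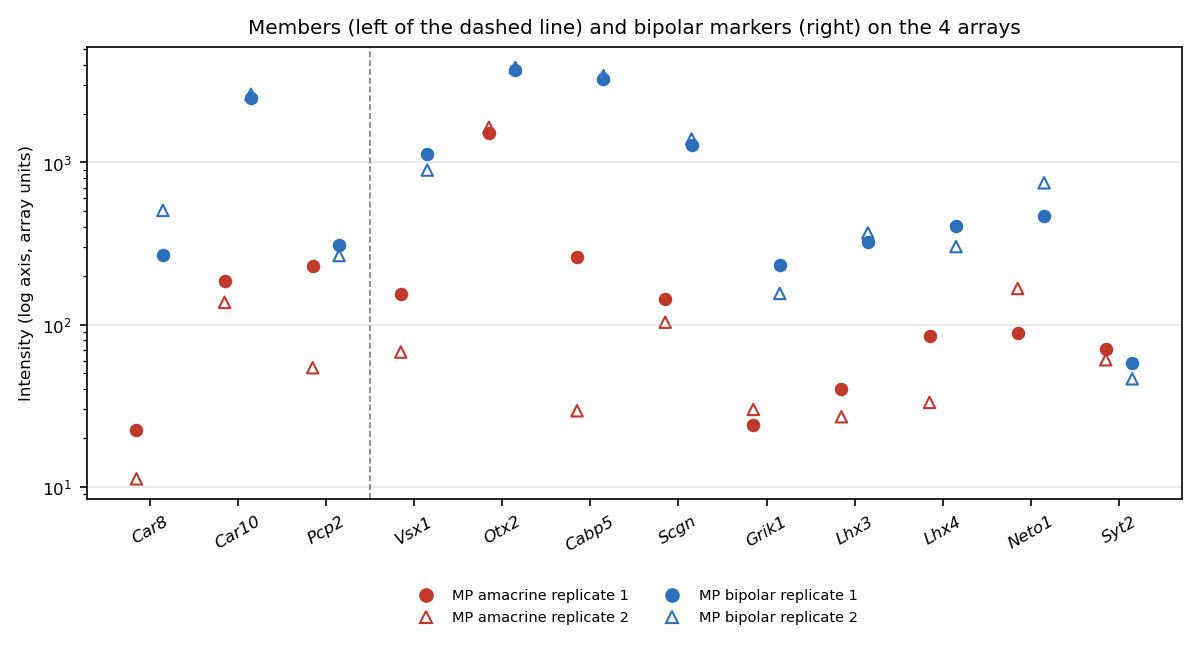
Intensity (array units, log axis) of Car8 1427482_a_at, Car10 1424547_at and Pcp2 1419085_at, left of the dashed line, and of 9 bipolar markers, right of it, with MP amacrine cells in red left of MP bipolar cells in blue. Pcp2 and Cabp5 show a wide gap between the amacrine replicates (228 and 54.2 for Pcp2, 259 and 29.4 for Cabp5).

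RefSeq lists 4 starts for Pcp2, and 3 of the 11 promoters of the members in the table held a searched motif, all of them of Pcp2. Entries were found for 7 of the 8 genes, all but Car8. The promoters of starts 1 and 3 of Pcp2 are shown for these matches, with the motif in capitals (build GRCm38.p6, 5′ to 3′).
Pcp2 start 1, chr8:3625498-3625797, minus strand: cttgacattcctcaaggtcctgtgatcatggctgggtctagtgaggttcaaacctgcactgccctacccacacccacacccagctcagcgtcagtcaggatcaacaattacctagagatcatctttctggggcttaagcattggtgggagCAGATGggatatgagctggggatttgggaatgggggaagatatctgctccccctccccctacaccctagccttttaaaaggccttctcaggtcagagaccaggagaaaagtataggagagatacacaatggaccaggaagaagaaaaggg
Pcp2 start 3, chr8:3625233-3625532, minus strand: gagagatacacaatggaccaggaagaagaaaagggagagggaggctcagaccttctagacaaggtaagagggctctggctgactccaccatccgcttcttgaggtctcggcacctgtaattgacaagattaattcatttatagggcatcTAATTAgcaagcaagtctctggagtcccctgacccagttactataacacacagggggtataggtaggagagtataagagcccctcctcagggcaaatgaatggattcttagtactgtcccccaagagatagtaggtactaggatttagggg
CAGATG begins 100 bases before start 1, and the overlapping promoter of start 2 holds the same copy. TAATTA begins 101 bases before start 3. The promoters of Prkca, Prkcb, Sebox, Rpa1, Vstm2b and Car10 held none of the 3 motifs, and these are counts of letters with no measurement of binding.

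G protein subunits of the Gi and Go class and other GoLoco genes were set beside Pcp2. Of 7 tested Gi, Go and GoLoco genes 0 passed after adjustment (limma, 1 at an unadjusted p under 0.05), beside 10.7% of all tested genes, and the median was 0.08. Gpsm1, a GoLoco protein, read 2051 and 1580 in MP amacrine cells and 2651 and 2701 in MP bipolar cells (-0.57, adjusted p = 0.089, limma), and it passed without MP amacrine replicate 1 (adjusted p = 0.015), where the lone amacrine array is assumed to vary like the bipolar arrays. Gpsm1 probe sets 1423690_s_at (-0.70, adjusted p = 0.21) and 1423689_a_at (-0.38, adjusted p = 0.50) were also tested and did not pass (limma). Gnao1, the G protein subunit through which ON bipolar cells signal, gave 203 and 202 in MP amacrine cells and 250 and 228 in MP bipolar cells (-0.22).

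Other genes with a role or strong expression in rod bipolar cells were split. Of 7 tested, 4 passed, all lower in MP amacrine cells. Over all tested genes 10.7% passed, 5.35% toward MP bipolar cells. The median of the 7 was -1.89, against -0.03 over all tested genes. Of the 4, Rgs11 and Gabrr2 were below the array median on both amacrine arrays. They passed the filter through the bipolar arrays alone, so their direction was set by it. The count and the median are thus a description of the genes that were tested. The 4 that passed were the GABA receptor rho subunits Gabrr1 (-3.78, SE 0.56) and Gabrr2 (-2.19, SE 0.43), the G protein regulator Rgs11 (-2.55, SE 0.20) and the leucine-rich repeat gene Lrtm1 (-1.89, SE 0.24), with adjusted p between 6.91e-04 and 0.024 (limma). Gabrr1 read 254 and 56.6 in MP amacrine cells and 1856 and 1953 in MP bipolar cells. Without MP bipolar replicate 1 or 2 only Gabrr1 and Lrtm1 passed, since Rgs11 and Gabrr2 then fall below the filter and were not tested. Gabrr2 missed the threshold without MP amacrine replicate 2 (adjusted p = 0.073). Gabrr1, Gabrr2 and Rgs11 are known from cone bipolar types as well. The transcription factor Prdm8, which rod bipolar cells need to form, read 4600 and 4694 in MP amacrine cells and 5360 and 5465 in MP bipolar cells and did not pass (-0.22, adjusted p = 0.19, limma). Isl1, a homeodomain factor of ON bipolar cells and other retinal neurons, had the opposite sign, with 1055 and 925 in MP amacrine cells and 575 and 684 in MP bipolar cells, and did not pass after adjustment (0.64, adjusted p = 0.12, limma). Nyx, the nyctalopin gene of ON bipolar cells, gave 0.18 and did not pass. Bhlhe23, another factor that rod bipolar cells need, was too dim to test, with 18.8 and 17.3 in MP amacrine cells and 17.7 and 20.6 in MP bipolar cells. Trpm1, the channel of ON bipolar cells, was too dim as well, at 22.4 and 26.7 in MP amacrine cells and 25.1 and 25.4 in MP bipolar cells.

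**Figure D4:**
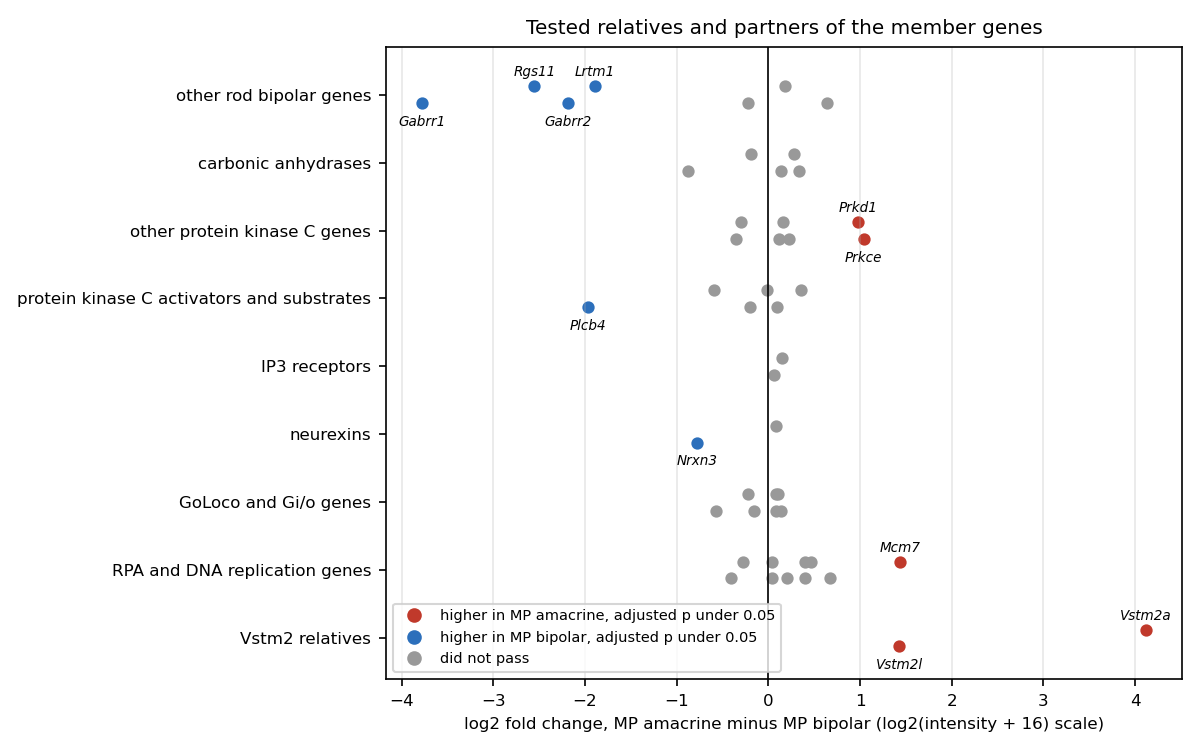
Log2 fold change (MP amacrine minus MP bipolar, on the log2(intensity + 16) scale) of the tested genes in 9 lists of relatives and partners of the member genes, by the brightest probe set of each, red or blue where the adjusted p was under 0.05 and grey where it was not. Of the rod bipolar genes 4 lie at -1.89 or below, Vstm2a lies at 4.12, and most other points lie near 0.

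Among 11582 other tested genes, those whose 4 log2 values lay nearest to Car10 1424547_at by Euclidean distance were Klhl5 (distance 0.41), Pcdh9 (0.50) and Tmcc3 (0.50). Klhl5 read 171 and 166 in MP amacrine cells and 2187 and 2218 in MP bipolar cells. Nearest to Car8 1427482_a_at were Col19a1 (0.49), Cltrn (0.54) and A930003A15Rik (0.60). Col19a1 read 24.6 and 22.1 in MP amacrine cells and 270.1 and 488 in MP bipolar cells. Nearest to Prkca 1437393_at were Nbas (0.12), Golph3 (0.13) and Tfg (0.14), none of which passed the test. The distance is over 4 arrays and includes the brightness of each probe set, so it describes likeness of the readings alone.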

How the data were processed

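The value table that the authors deposited gives, for each array, a linear intensity of every probe set. Their summary, background correction and scaling are not given in the sources used here. Samples were grouped by their titles. Of 45101 probe sets, 64 controls were left out. Of the others, the platform annotation gives 34945 exactly 1 gene, 932 several and 9160 none. RefSeq changed 0 symbols.

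Values were used as log2(intensity + 16). Probe sets above the array median on at least 2 of 4 arrays, 23648 in all, were fitted singly with limma 3.58.1 in R 4.3.3 (lmFit, eBayes with an intensity trend, two-sided, 2 residual degrees of freedom), with Benjamini-Hochberg adjustment over all of them and a threshold of 0.05. Intervals are unadjusted 95% intervals. For genes outside the 8, the brightest probe set stood for the gene. The number of arrays limits the precision, and detection calls were not used. The fit was tested on simulated data.

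The genes, lists, motifs and tests were chosen with earlier results of these data known. Named were every probe set of the 8 genes. Of each other list, all genes that passed were named where at most 4 did, otherwise the 4 largest, or the brightest where none passed. The 3 genes nearest to Car8, Car10 and Prkca were also named. Nrxn2, Itpr2, Car2, Car11, Rpa2, Rpa3, Gnao1, Mcm2, Prdm8, Bhlhe23, Trpm1, Isl1, Nyx, Nefm, Nefl, Pou4f1, Slc17a6, Otx2, Grik1, Neto1 and Calb2 were named after their values were seen. Alternatives were other scalings, filters, offsets, test units and moderation, the replicate number as a block, and each replicate left out. A planned comparison of protein sequences was not made.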

Additional observations from a re-analysis of the deposited data

How the results depend on the processing

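Over all probe sets 2237 passed, 745 with no filter on dim probe sets, which tests 45037, and between 808 and 2500 when single replicates were omitted (946 without MP bipolar replicate 1, 808 without MP bipolar replicate 2). Of the member probe sets 4 passed, and between 1 and 5 when single replicates were omitted. Without either bipolar replicate Car10 1424547_at alone passed, since the 2 Car8 probe sets then fall below the filter and Rpa1 1437309_a_at, still tested, lost its call (adjusted p = 0.19 and 0.29). Car10 1424547_at passed in all 16 alternatives (-4.08 to -3.55), and the 2 Car8 probe sets passed wherever they were tested. Of 222 values for tested member probe sets, 213 kept sign and side of the threshold, and 7 of the others were Rpa1 1437309_a_at losing its call. Filters, test units, moderation and the replicate block leave the fold change as it was. With these settings only the side of the threshold could change, so the count overstates how stable the signs are. Prkcb 1423478_at changed sign without MP bipolar replicate 1 (-0.027, with 0.31 at the other end of the left-out range), Itpr3 without MP amacrine replicate 2 (-0.18 to 0.31), and Sag without MP amacrine replicate 1 or MP bipolar replicate 1 (-0.19 to 0.25). The cause was not tested. Of 394 values for other named genes, 32 lost the call and 2 gained it. Of 176 counts for the lists, 138 stayed within 1.5 times of the value given. The labels do not say that a replicate number pairs arrays across groups, and the deviations of the same-numbered arrays correlated at -0.08 across probe sets. With the number as a block 2361 probe sets passed, and the same count of 4 member probe sets. With 2 arrays a group, dim probe sets such as those of Prkca and Vstm2b near or below the offset give no usable difference.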

Other observations

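All 15 tested probe sets of the 8 genes were higher on MP amacrine replicate 1 than on replicate 2, whichever group they were higher in. Over all tested probe sets 49.1% were, and on the bipolar arrays 6 of the 15 were higher on replicate 1. Several of the 15 belong to the same gene. Of the dim untested probe sets, Prkca 1450945_at, Prkcb 1443144_at and Pcp2 1424944_at were higher on MP amacrine replicate 2. Prkca 1427562_a_at and both of Vstm2b were higher on replicate 1. The median log2 difference between the amacrine arrays, replicate 2 minus replicate 1, was -0.28 for the 15 and 0.01 over all tested probe sets. Of the other 7 rod bipolar genes tested, 4 were higher on MP amacrine replicate 1, as were 6 of 9 bipolar markers and 4 of 9 amacrine markers. The median difference of the bipolar markers was -0.38. MP amacrine replicate 2 also had the largest differences between 3-prime and 5-prime control probe sets, 3.21 for Gapdh and 3.82 for actin on the log2 scale. On MP amacrine replicate 1 they were 1.78 and 1.89. The shared direction of the 15 was noticed after the values were seen, and no cause was tested.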
